A study of Homo sapiens with 8 samples.

Results

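Genes of cholesterol synthesis were followed in U2OS cells, an established human osteosarcoma line, with and without TNF-α. The set was given as a list of 8 symbols, SREBF2, INSIG1, HMGCS1, IDI1, FDFT1, SQLE, SC5D and DHCR7. The rule that picks its members uses no measured value, but the list was chosen with earlier results of these data known. Counts of members below are therefore not those of a set picked blind to the data. Each symbol was matched by its Ensembl identifier to GENCODE release 29, and all 8 were found among the 58735 genes of the deposited tables. The set holds the transcription factor of the pathway, its inhibitor and 6 enzymes. None of the 8 encodes an uptake receptor, so uptake is touched on here only through a wider list of pathway genes.

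The cells carried a control shRNA (called control) or a shRNA against WSB2 (called KD), a substrate receptor of a Cullin-RING ubiquitin ligase. The hairpins were delivered in a lentiviral pLKO.1 vector and the cells were selected with puromycin, so each line is a stable pool. Each line was left unstimulated or received TNF-α for 5 h, and 2 libraries were sequenced from each of the 4 groups. All groups share the parental line and its serum-containing McCoy's 5a medium, which brings lipoprotein cholesterol to the cells. Which of the study's WSB2 hairpins was sequenced, and whether replicate libraries came from separate cultures, is not given in the sources used here, so the tests below measure only the spread between these libraries.

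Cells make cholesterol from acetyl-CoA through the mevalonate pathway and also take it up with LDL particles. SREBP-2, the protein encoded by SREBF2, is held in the endoplasmic reticulum together with SCAP while sterols are plentiful, and INSIG1 is the anchor that holds the pair there. When sterols fall, the pair moves to the Golgi, where proteases release the active end of SREBP-2. It then enters the nucleus and induces the enzymes of the pathway and INSIG1 itself, usually together with the factor NF-Y, which binds CCAAT boxes. SREBP-2 is therefore controlled largely by cleavage of the protein, which transcript levels do not report.

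The enzymes act along the pathway in a fixed order. HMGCS1 makes HMG-CoA, from which mevalonate is formed. IDI1 isomerises isopentenyl diphosphate, and FDFT1 joins a pair of farnesyl diphosphates into squalene, the first step committed to sterols. SQLE oxidises squalene, and SC5D and DHCR7 carry out late steps on the sterol ring, of which the reaction of DHCR7 yields cholesterol itself.

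All positions are on GRCh38. FDFT1 (ENSG00000079459) and SQLE (ENSG00000104549) lie on chromosome 8, at chr8:11795573-11839309 and chr8:124998497-125022283, both on the plus strand. Over the 8 libraries together the genes of the set were covered by 1717 (IDI1) to 42168 (SREBF2) reads.

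SREBF2 (ENSG00000198911) lies at chr22:41833079-41907308 on the plus strand and INSIG1 (ENSG00000186480) at chr7:155297776-155310235, also on the plus strand. HMGCS1 (ENSG00000112972) spans chr5:43289395-43313512 on the minus strand. IDI1 (ENSG00000067064) spans chr10:1039152-1049170 on the minus strand. SC5D (ENSG00000109929) and DHCR7 (ENSG00000172893) lie on chromosome 11, at chr11:121292453-121308694 on the plus strand and chr11:71428193-71452868 on the minus strand. An antisense or long non-coding gene overlaps 5 of the 8, and whether counting used the strand is not stated. The largest of these neighbours by reads, SREBF2-AS1, had 772 reads against the 42168 of SREBF2.

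RefSeq promoter windows, from 250 bases before to 50 bases after an annotated start on GRCh38.p14, were given for 6 of the 8 genes, in 11 windows. These windows were searched on both strands for 3 motifs, namely TCACNCCAC (a sterol regulatory element), CCAAT (the NF-Y box) and, for NF-κB, GGG and TTTCC with 2 bases of any kind between them. A CCAAT box was present in 8 of the 11 windows and in at least 1 window of each of the 6 genes. Among all 35116 windows 34.6% hold CCAAT, and 39.7% of genes have it in a window. Only the SREBF2 window held this pattern of the sterol regulatory element, which is in 1.13% of all windows. None of the 11 held the κB pattern, which is in 1.91%. Sites that depart from these exact patterns were not searched for. The 200 bases before a start are shown for the 4 genes on which the comparisons below turn most and which have a window, with both motifs in capitals where they occur (ATTGG is CCAAT on the other strand).
SREBF2, chr22:41832905-41833104, plus strand: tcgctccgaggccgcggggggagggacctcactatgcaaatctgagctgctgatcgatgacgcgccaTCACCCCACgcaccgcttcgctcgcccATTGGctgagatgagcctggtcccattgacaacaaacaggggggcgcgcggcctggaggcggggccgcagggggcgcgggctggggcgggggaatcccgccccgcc
HMGCS1, chr5:43313413-43313612, minus strand: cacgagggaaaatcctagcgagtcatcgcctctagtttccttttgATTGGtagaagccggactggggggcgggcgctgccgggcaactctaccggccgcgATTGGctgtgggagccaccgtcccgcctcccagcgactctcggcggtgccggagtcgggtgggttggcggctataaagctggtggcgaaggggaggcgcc
SC5D, chr11:121292571-121292770, plus strand: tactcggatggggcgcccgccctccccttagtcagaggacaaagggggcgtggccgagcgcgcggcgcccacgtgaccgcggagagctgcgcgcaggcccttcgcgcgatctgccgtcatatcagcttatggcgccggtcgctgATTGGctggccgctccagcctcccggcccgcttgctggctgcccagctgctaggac
DHCR7, chr11:71448394-71448593, minus strand: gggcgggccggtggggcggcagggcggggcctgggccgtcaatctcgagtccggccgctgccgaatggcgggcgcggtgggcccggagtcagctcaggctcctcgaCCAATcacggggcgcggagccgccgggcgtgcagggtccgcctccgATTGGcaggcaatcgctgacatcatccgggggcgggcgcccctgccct

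In SREBF2 the sterol regulatory element starts 133 bases before the annotated start and the inverted CCAAT box 106 bases before it. HMGCS1, SC5D and DHCR7 have 2 windows each, of which 1 is shown. In those shown, HMGCS1 has inverted boxes 155 and 100 bases before its start, SC5D a single inverted box 56 bases before, and DHCR7 a CCAAT box at 94 bases and an inverted one at 48 bases. The same box of SC5D lies 137 bases before its other start, and the other windows of HMGCS1 and DHCR7 hold no box. These are matches of letters in a window, and binding at them was not measured.

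The libraries held between 15601098 and 18677023 reads. WSB2 was at 27.7 and 27.998 FPKM in the unstimulated control libraries, 24.995 and 25.3 with TNF-α, 8.38 and 8.52 in the unstimulated KD libraries and 9.002 and 9.18 in KD with TNF-α. FPKM counts fragments relative to exon length and library size, so it is a level that can be compared between genes. TNF-α raised the NF-κB targets NFKBIA, TNFAIP3 and CXCL8 by 2.76, 3.87 and 4.44 in control cells on the log2(FPKM + 1) scale. Of 9 mesenchymal and bone markers, VIM, COL1A1 and SPARC were at 146 to 293 FPKM in each library and RUNX2 and ALPL at 1.22 to 5.41. The bone genes IBSP, SP7 and BGLAP and the collagen gene COL1A2 were at 0 to 0.448 FPKM. Of 4 epithelial markers KRT18 was at 74.3 and 74.8 FPKM in the unstimulated KD libraries and at 145 to 197 FPKM elsewhere, while EPCAM, KRT19 and CDH1 reached 0.482 FPKM at most. The blood, endothelial and hepatocyte markers reached 0.245 FPKM at most. The unstimulated KD libraries stood apart. Their reads had a mean GC content of 49.4% and 49.9%, against 52.5% to 53.2% in the other 6 libraries. Mitochondrial genes took 4.10% and 4.42% of their reads, against 1.11% to 2.03%, and 26225 and 26397 genes had a read, against 22072 to 22957. Each comparison that uses these 2 libraries is given below with and without a correction for GC content and length. The part of mitochondrial reads and of KRT18 in them was not tested.

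The 8 genes differed widely in level. In unstimulated control cells SREBF2 stood highest with a mean of 40.4 ± 4.67 FPKM (SD, n = 2). FDFT1 followed with 31.3 ± 2.95, DHCR7 with 22.3 ± 0.792, SQLE with 18.6 ± 2.40 and HMGCS1 with 15.03 ± 1.15. INSIG1, IDI1 and SC5D were far lower, at 4.54 ± 0.187, 2.97 ± 0.161 and 2.88 ± 0.148. Neighbours in this order did not overlap between libraries, except IDI1 and SC5D. With TNF-α in control cells the order was the same but SQLE and HMGCS1 overlapped, and in both KD groups HMGCS1 moved to the second place behind SREBF2. Enzymes of one pathway were thus present at levels from 1.67 FPKM (SC5D) to 33.4 FPKM (FDFT1) across the 8 libraries.

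**Figure D1:**
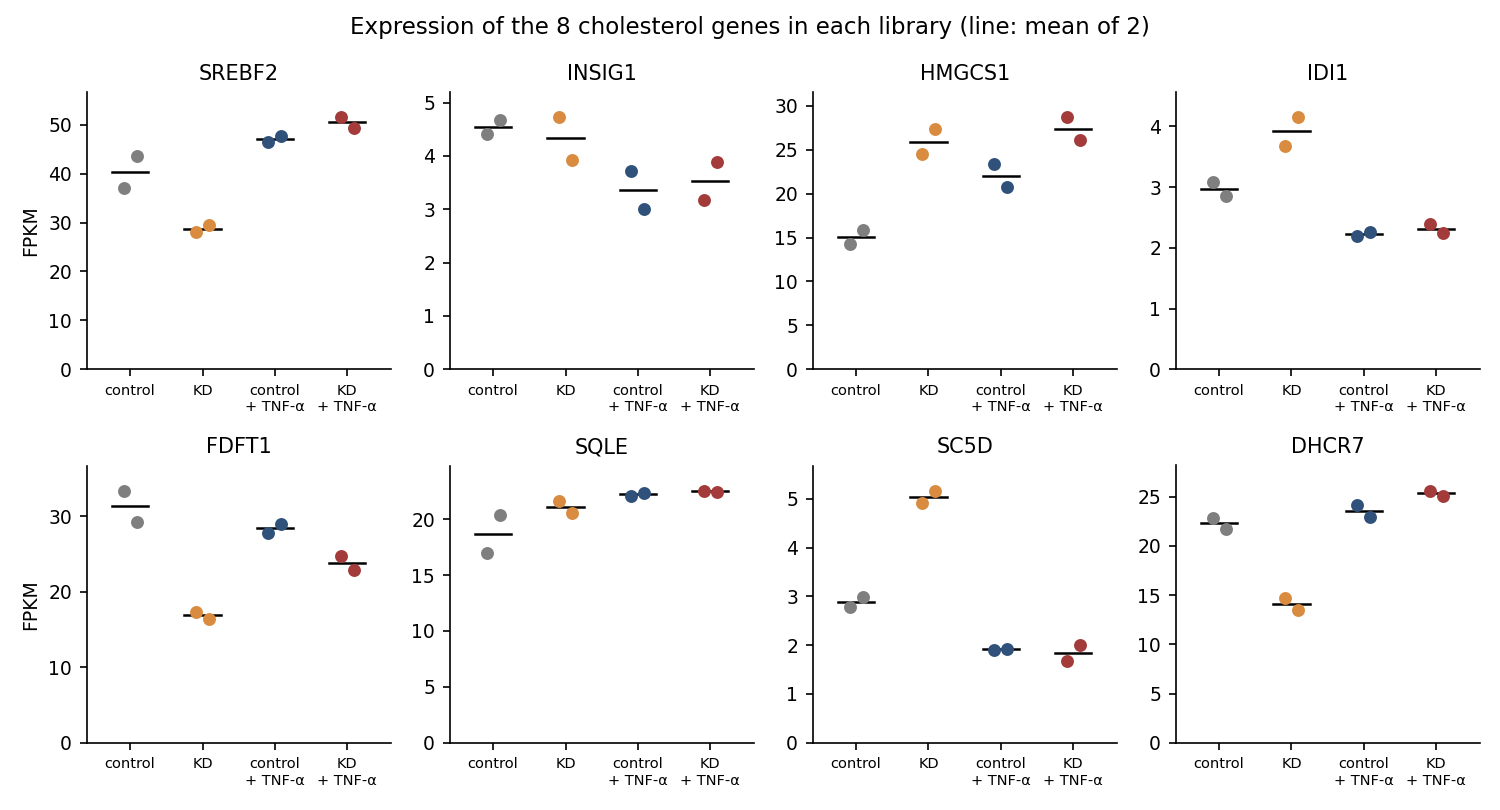
FPKM of each of the 8 genes (y axes, each from 0) in the 4 groups (x axes); each point is a library and each line the mean of 2. HMGCS1 is lowest in unstimulated control cells, at 14.2 and 15.8 FPKM, while SREBF2, FDFT1 and DHCR7 are lowest, and IDI1 and SC5D highest, in unstimulated KD cells.

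The first question was how TNF-α changed these genes in control cells. HMGCS1 rose, and it was the only member that passed the test. The other 7 split by direction, with SQLE, SREBF2 and DHCR7 higher and SC5D, INSIG1, IDI1 and FDFT1 lower, each without passing it. All 8 genes had libraries that did not overlap between the groups, 4 higher and 4 lower. Among all 16528 genes tested the libraries did not overlap in 42.5%, with 22.6% higher and 19.9% lower.

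HMGCS1 was at 14.2 and 15.8 FPKM without TNF-α and at 23.4 and 20.7 FPKM with it. Both stimulated libraries were above both unstimulated ones, and the mean rose 1.47-fold. In bulk RNA, more RNA per cell and more cells that express a gene cannot be told apart. The log2 fold change was 0.52 (SE 0.101, adjusted p = 0.0318, limma). Called genes made up 4.24% of all genes tested (3.1% higher), against 1 of 8 here. The call is close to the threshold. It was lost in 7 of the 8 fits that leave out a library, where the adjusted p ran from 0.0177 to 0.201, and at 0.0558 without the unstimulated KD libraries.

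SC5D was at 2.78 and 2.99 FPKM without TNF-α and at 1.91 and 1.92 FPKM with it. The stimulated pair was lower and close together, at 0.664 of the unstimulated mean. Its log2 fold change of -0.41 (SE 0.105) had an adjusted p of 0.0813, and after correction for GC content and length it passed at -0.40 with an adjusted p of 0.0457. INSIG1 was at 4.404 and 4.67 FPKM without TNF-α and at 3.72 and 3.002 FPKM with it (log2 fold change -0.35, adjusted p = 0.237). IDI1 was at 3.09 and 2.86 FPKM and then at 2.20 and 2.25 FPKM (-0.30, adjusted p = 0.184). The 3 genes are the low members of the set, for which log2(FPKM + 1) understates a change.

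SREBF2, the gene of the transcription factor itself, was at 37.1 and 43.7 FPKM without TNF-α and at 46.4 and 47.6 FPKM with it. The log2 fold change was 0.22 with a 95% confidence interval of 0.01 to 0.43 (adjusted p = 0.267). SQLE went from 16.9 and 20.3 FPKM to 22.1 and 22.4 FPKM, a log2 fold change of 0.25 (adjusted p = 0.225). On leaving out 1 library the log2 fold change ran from 0.10 to 0.34 for SREBF2 and from 0.12 to 0.37 for SQLE. Both were highest without the second unstimulated control library. DHCR7 (22.9 and 21.8 FPKM, then 24.2 and 23.0) and FDFT1 (33.4 and 29.2, then 27.7 and 28.99) had the smallest differences, 0.08 and -0.13 on the log2 scale. An unadjusted limma p under 0.05 was found for 6 of 8 genes, all but these last, against 17.5% of all genes tested.

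**Figure D2:**
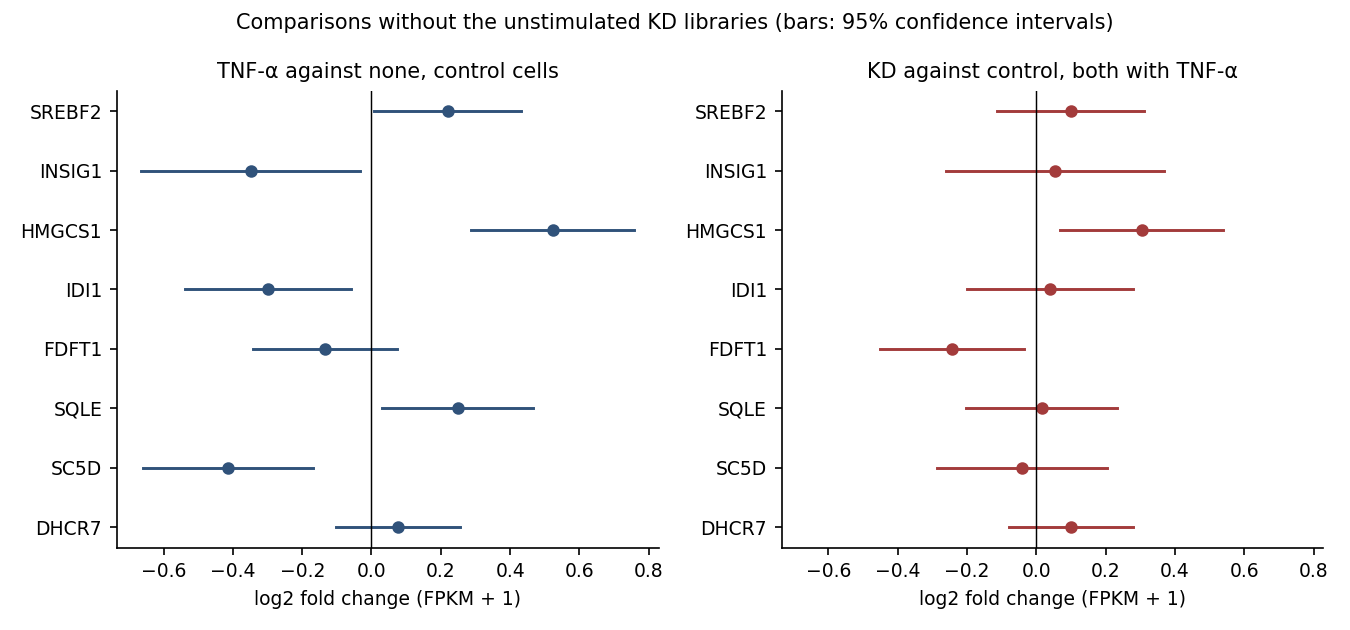
Log2 fold changes of log2(FPKM + 1) with 95% confidence intervals (x axis) for the 8 genes (y axis), for TNF-α in control cells (left) and for KD against control with TNF-α (right). HMGCS1 has the highest value in both panels, 0.52 and 0.30, and the values on the left lie on both sides of 0 from -0.41 to 0.52.

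The members did not rise or fall as a set. Their median log2 fold change was -0.03, against 0.01 over all genes tested. In the wider lists, 51 of 52 genes were tested, since CH25H had no reads, and only 1 passed the test. MSMO1, an enzyme of sterol C4 demethylation, fell from 18.4 and 18.6 FPKM to 14.6 and 12.9 FPKM, by 0.40 on the log2 scale (adjusted p = 0.0362), and this call was lost in 7 of the 8 fits that leave out a library (adjusted p 0.0321 to 0.252).

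Among the partners and relatives of SREBP-2, INSIG2 (-0.26) and SREBF1 (-0.18) did not pass the test, nor did SCAP, whose 0.06 took the other sign with both other scalings and with the correction for GC content. By list, 0 genes rose and 1 of 14 fell among the other synthesis enzymes (median -0.06). None of the 9 genes of uptake and transport (median -0.21), 6 of SREBP regulation (0.0015), 6 of efflux and storage (-0.05), 9 of fatty acid synthesis (-0.10) and 7 of the isoprenoid branch (-0.03) passed. Over the 51 genes 10 had an unadjusted p under 0.05, against the 17.5% of all genes.

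**Figure D3:**
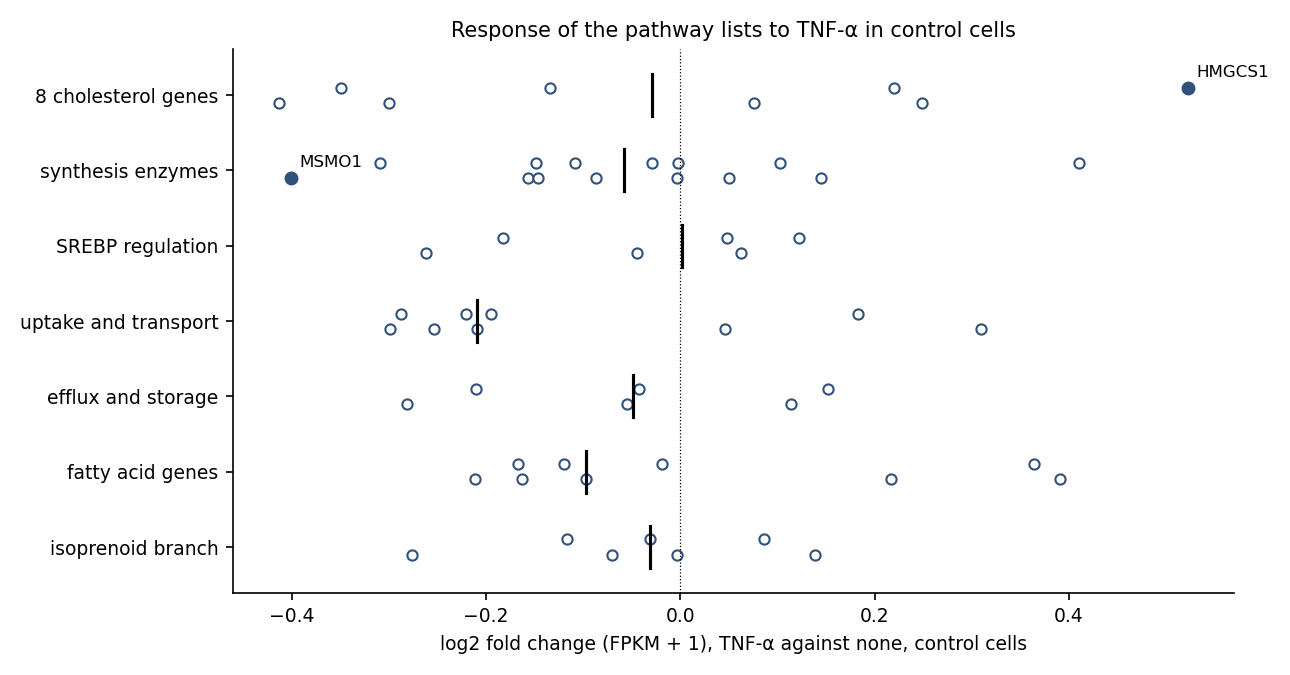
Log2 fold changes of log2(FPKM + 1) by TNF-α in control cells (x axis) for the 8 genes and the 6 wider lists (y axis); each circle is a gene, filled where it passed the test, and each bar the median of the list. Only HMGCS1 (0.52) and MSMO1 (-0.40) passed.

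The second question was whether loss of WSB2 changed these genes under TNF-α, the condition in which the study looked for targets of NF-κB. No member passed the test. HMGCS1 was at 23.4 and 20.7 FPKM in control and at 28.7 and 26.1 FPKM in KD cells, and FDFT1 at 27.7 and 28.99 FPKM against 24.8 and 22.9 FPKM. Neither pair of groups overlapped, and the log2 fold changes were 0.30 for HMGCS1 (95% confidence interval 0.07 to 0.54, adjusted p = 0.45) and -0.24 for FDFT1 (-0.45 to -0.04, adjusted p = 0.519). These were the 2 of 8 members with an unadjusted limma p under 0.05, against 8.16% of all genes.

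The other 6 members differed little. SREBF2 was at 46.4 and 47.6 FPKM in control and at 51.5 and 49.4 FPKM in KD cells, 0.10 on the log2 scale with an interval of -0.11 to 0.31. DHCR7 was at 24.2 and 23.0 FPKM against 25.6 and 25.1 FPKM, also 0.10 (-0.08 to 0.28). SQLE was at 22.1 and 22.4 FPKM against 22.5 and 22.4 FPKM, a log2 fold change of 0.02 (-0.20 to 0.23) that took the other sign with both other scalings. INSIG1, IDI1 and SC5D overlapped between the groups, with intervals of -0.26 to 0.37, -0.20 to 0.28 and -0.29 to 0.20. The log2 fold change of HMGCS1 by TNF-α, 0.52, lies outside each of these intervals. It lies inside the interval of HMGCS1 itself given above, and this scale understates changes of the low genes INSIG1, IDI1 and SC5D.

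Of the 8 members 4 were higher and 1 lower with no overlap between libraries, against 23.9% and 22.3% of all genes (46.2% in either direction). Only 19 of the 16528 genes passed the test, or 0.115% (52 with voom, and 0 to 98 on leaving out 1 library, with 0 without the second stimulated KD library and 98 and 97 without the first and second unstimulated control library), and WSB2 was one of them with a log2 fold change of -1.37 (adjusted p = 0.00113, or 0.0519 without the second stimulated KD library). None of the 51 other pathway genes passed either, 2 of them having an unadjusted p under 0.05. INSIG2 had the value 0.07, SCAP 0.08 and SREBF1 0.16. The counts of members and of pathway genes were also 0 with voom on the recovered reads, with the correction for GC content (0.387% of all genes called) and without the unstimulated KD libraries.

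Without TNF-α the picture was different, and here the difference between cells cannot be told apart from the difference in GC content between libraries. As deposited, 6 of 8 members passed the test, HMGCS1, SC5D and IDI1 higher and FDFT1, DHCR7 and SREBF2 lower in KD cells. So did 60.1% of all genes, 29.8% higher and 30.2% lower, so the count says nothing particular about these genes. The 3 higher members have the lowest GC content of the set, 40.2% (HMGCS1), 38.6% (SC5D) and 41.1% (IDI1), while DHCR7 and SREBF2 have the highest, 58.3% and 57.1%. Across the 8 genes the rank correlation of GC content with the log2 fold change was -0.88, across the 51 other pathway genes -0.76 and across 16520 genes -0.68. These genes share the same libraries, so the values are descriptions. With TNF-α on both sides the value over 16520 genes was 0.0345. After correction the values without TNF-α were -0.69 for the 8 genes, -0.23 for the 51 others and 0.0021 over 16520 genes. A relation with GC content thus remained among the 8 genes.

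**Figure D4:**
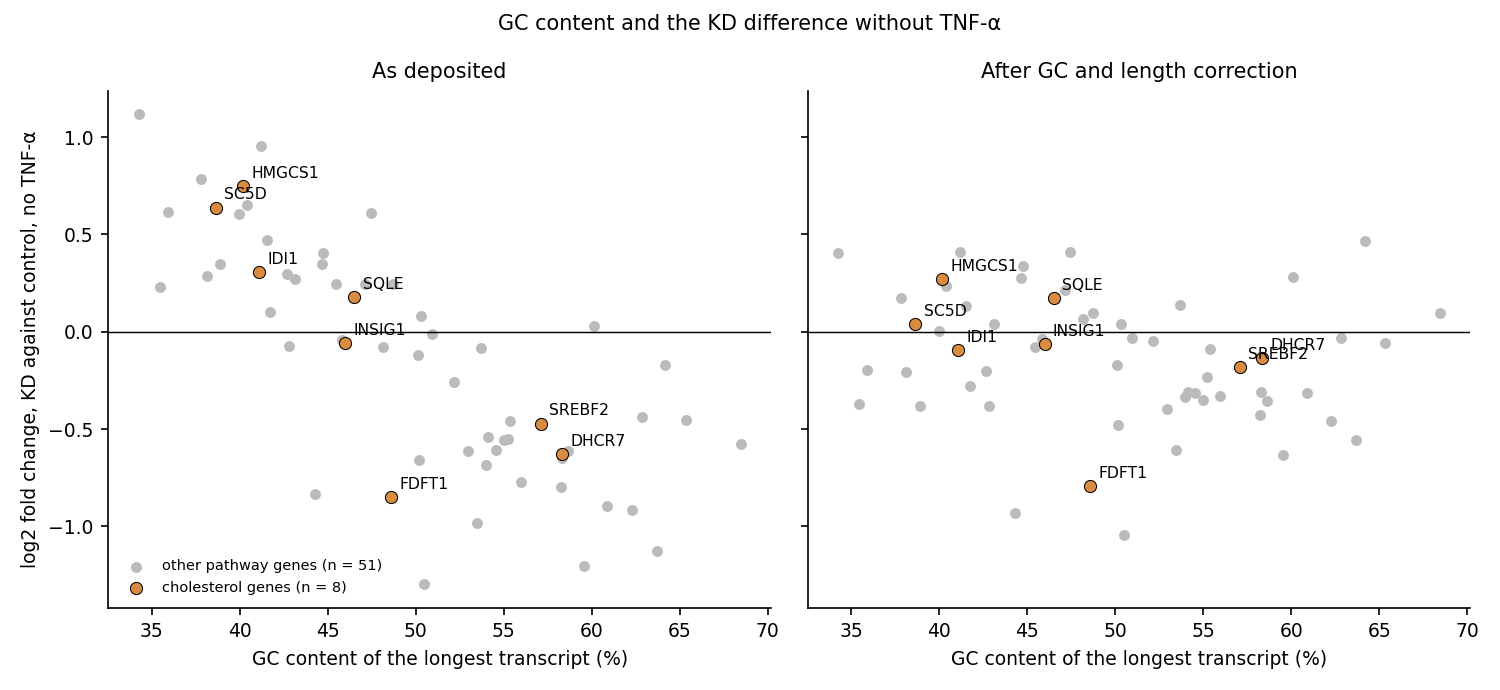
Log2 fold change of KD against control without TNF-α (y axis) against the GC content of the longest transcript in percent (x axis), as deposited (left) and after correction (right), for the 8 genes (orange) and 51 other pathway genes (grey). The rank correlation for the 8 genes is -0.88 on the left and still -0.69 on the right, where FDFT1 stays low at -0.79.

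Of the members that still passed after correction, FDFT1 kept the larger difference. It was at 33.4 and 29.2 FPKM in control and at 17.4 and 16.4 FPKM in KD cells, 0.54 of the control mean. Its log2 fold change was -0.85 (SE 0.0893, adjusted p = 0.000243, limma) as deposited and -0.79 (adjusted p = 0.000662) after correction. In the set its GC content of 48.6% is below only those of DHCR7 and SREBF2. The part of GC content and of mitochondrial reads in what remains was not tested. With TNF-α the same comparison gave the -0.24 above.

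HMGCS1 was at 14.2 and 15.8 FPKM in control and at 24.5 and 27.3 FPKM in KD cells. Its log2 fold change of 0.75 (adjusted p = 0.000554) became 0.27 after correction (adjusted p = 0.0209), so it still passed but at a smaller size. When scaled to total reads it was 1.02, so its size depended on the setting. With TNF-α the value was the 0.30 above, which did not pass. The fold changes with and without TNF-α share no library, but their tests use a common spread.

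The other 4 calls were lost with the correction. SC5D was at 2.78 and 2.99 FPKM in control and at 4.92 and 5.17 FPKM in KD cells, and its log2 fold change of 0.64 became 0.04 (95% confidence interval -0.17 to 0.25). DHCR7 was at 22.9 and 21.8 FPKM against 14.7 and 13.5 FPKM, -0.63 and then -0.13 (-0.29 to 0.02). SREBF2 was at 37.1 and 43.7 FPKM against 28.1 and 29.4 FPKM, -0.47 and then -0.18 (-0.37 to 0.00). IDI1 was at 3.09 and 2.86 FPKM against 3.68 and 4.15 FPKM, and its 0.31 turned to -0.10 (-0.31 to 0.12); the call as deposited was also lost in 7 of the 8 fits that leave out a library (adjusted p 0.0368 to 0.193). INSIG1 (4.404 and 4.67 against 4.73 and 3.93 FPKM) overlapped, with -0.06 as deposited and 0.17 when scaled to total reads. SQLE, at 16.9 and 20.3 FPKM against 21.7 and 20.6 FPKM, had the value 0.18 before and 0.17 after correction, and did not pass in either. Its value rested on the control libraries, being 0.051 without the first of them and 0.30 without the second, where it passed (adjusted p = 0.0061).

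Corrected in this way, 2 of 8 members and 52.1% of all genes passed. Scaling to total reads in place of the deposited factors moved the median of all genes by 0.13 in this comparison, -0.18 for TNF-α in KD cells and -0.14 for the interaction. Relative to the deposited scale, the split of members then changed from 3 higher and 3 lower to 4 higher and 2 lower, with SQLE (0.45) called and SREBF2 (-0.20) not. The split of all genes changed likewise, from 29.8% higher and 30.2% lower to 39.4% and 20.9%.

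**Figure D5:**
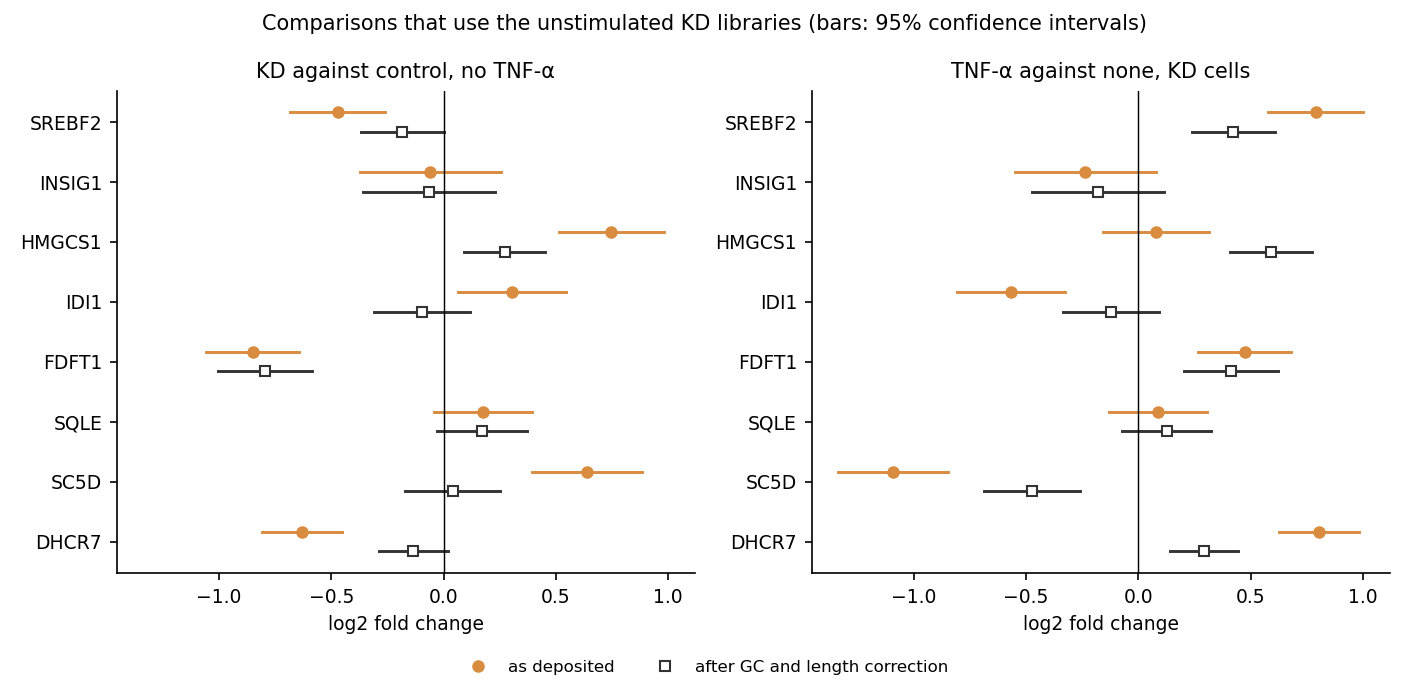
Log2 fold changes with 95% confidence intervals (x axis) for the 8 genes (y axis), for KD against control without TNF-α (left) and TNF-α in KD cells (right), as deposited (filled circles) and after correction for GC content and length (open squares). On the left FDFT1 and HMGCS1 keep intervals that leave out 0 after correction, at -0.79 and 0.27.

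More of the other enzymes of the pathway were lower than higher in unstimulated KD cells, as deposited, when scaled to total reads and after correction. Of 14 synthesis enzymes 2 were higher and 9 lower as deposited, with a median of -0.65, where 30.2% of all genes were lower. When scaled to total reads 4 were higher and 9 lower (median -0.40), where 20.9% of all genes were lower. After correction 1 was higher and 10 lower (median -0.32), where 27.6% of all genes were lower. NSDHL, which acts with MSMO1 in C4 demethylation, went from 30.01 and 26.2 FPKM in control to 11.1 and 10.5 FPKM in KD cells, a log2 fold change of -1.30 that stayed at -1.04 after correction (adjusted p = 0.000223). PMVK, a kinase of the mevalonate steps, had -1.20 and then -0.63 (adjusted p = 0.00201).

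Among genes of SREBP regulation SCAP was lower before and after correction, at -0.92 and -0.46. MBTPS2, a protease that cleaves the SREBPs in the Golgi, was called higher as deposited (0.62) and had the value -0.20 after correction, which did not pass. INSIG2 did not pass as deposited (0.23), was called higher when scaled to total reads (0.45) and was called lower after correction (-0.37). SREBF1 was lower as deposited only (-0.44, then -0.03), and not without the second unstimulated KD library (adjusted p = 0.0519). STARD4, a sterol transfer protein, was higher at 1.12 and then 0.41, and NPC2, which carries cholesterol out of lysosomes, was lower at -0.83 and then -0.93. In the remaining lists NR1H2 (-0.89, then -0.32), ELOVL6 (0.95, then 0.41) and LPIN1 (0.61, then 0.41) passed before and after. SOAT1 (0.61, then 0.00), GGPS1 (0.65, then 0.24) and FNTB (-0.69, then -0.33) passed only before. MBTPS2 and GGPS1 were low, at 0.396 to 1.47 and 0.664 to 2.03 FPKM over the 8 libraries, near the 1 added before the log. Over the 51 genes 13 were higher and 22 lower as deposited, 20 and 20 when scaled to total reads, and 5 and 19 after correction. The shares of all genes at the same 3 settings were 29.8% and 30.2%, 39.4% and 20.9%, and 24.5% and 27.6%.

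TNF-α in KD cells repeats the same 2 libraries as its reference and has the same limit. As deposited, DHCR7 (0.81), SREBF2 (0.79) and FDFT1 (0.47) rose and SC5D (-1.09) and IDI1 (-0.57) fell, 5 of 8 members against 62.5% of all genes (31.1% higher, 31.4% lower). SC5D went from 4.92 and 5.17 FPKM to 1.67 and 2.00 FPKM, which made it the only member to pass a p under 0.05 with an absolute log2 fold change above 1, as 14.4% of all genes did. Scaled to total reads, 2 members rose and 3 fell, with FDFT1 at 0.11 no longer called and INSIG1 called at -0.54. All genes shifted the same way at that scale, to 20.0% higher and 43.8% lower. HMGCS1 (0.08) and SQLE (0.09) did not pass, and both took the other sign with both other scalings (-0.29 and -0.28 with total reads).

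After correction, 5 of 8 members passed again, against 56.6% of all genes, but they were not the same 5. HMGCS1 rose by 0.59 (adjusted p = 0.000669), close to its 0.55 in control cells, and SC5D fell by 0.47 (adjusted p = 0.00332), beside 0.40 in control cells. The fold changes of these 2 comparisons share no library, but both tests use a common spread taken over all 8 libraries. HMGCS1 and SC5D were the 2 members called in the same direction in control and KD cells, and 748 of 16520 genes were. SREBF2 (0.42), FDFT1 (0.41) and DHCR7 (0.29) were called too, while IDI1 (-0.12), INSIG1 (-0.18) and SQLE (0.13) were not. The sign was that of control cells in 7 of 8 members, against 56.3% of all genes, and FDFT1 was the exception. In control cells the corrected count was also 2 of 8, against 5.75% of all genes. As deposited, 0 of 8 members were called in the same direction in control and KD cells, against 565 of 16528 genes. The rise of HMGCS1 in KD cells was not called with other settings, being 0.08 with voom and -0.29 with total reads.

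In the wider lists 21 of 51 genes rose and 15 fell in KD cells as deposited, 13 and 21 when scaled to total reads, and 17 and 6 after correction. The shares of all genes at the same 3 settings were 31.1% and 31.4%, 20.0% and 43.8%, and 30.5% and 26.0%. SCAP (1.06, then 0.53), SCARB1 (0.70, then 0.41), NSDHL (0.95, then 0.74), PMVK (1.16, then 0.62), NR1H2 (1.21, then 0.62), FASN (0.88, then 0.36) and DHDDS (0.68, then 0.41) rose before and after correction. STARD4 (-1.06, then -0.31) and ELOVL6 (-1.002, then -0.47) fell in both, and SOAT1 (-0.54, then 0.06) and GGPS1 (-0.70, then -0.22) only before. SREBF1 (0.42, then -0.09) rose only as deposited, and INSIG2 (-0.42, then 0.25) and MBTPS2 (-0.58, then 0.22) fell as deposited and rose after correction.

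Whether the KD difference changed with TNF-α was tested as an interaction. As deposited it was called for 5 of 8 members, against 46.1% of all genes (23.8% positive, 22.3% negative). It was 0.73 for DHCR7 (adjusted p = 0.00241), 0.61 for FDFT1 (adjusted p = 0.00683), 0.57 for SREBF2 (adjusted p = 0.00927), -0.68 for SC5D (adjusted p = 0.00834) and -0.44 for HMGCS1 (adjusted p = 0.0359). The call of HMGCS1 was lost in 5 of the 8 fits that leave out a library (adjusted p 0.0179 to 0.131). SQLE was not called (-0.16), but was at -0.29 without the second unstimulated control library (adjusted p = 0.0259). After correction only FDFT1 was called, at 0.53 (SE 0.128, adjusted p = 0.0173), where 35.3% of all genes were. Scaled to total reads the value of FDFT1 was 0.32 (adjusted p = 0.0426). FDFT1 was thus low in unstimulated KD cells and nearer to control cells with TNF-α, at 16.9 against 31.3 FPKM and at 23.8 against 28.4 FPKM. Scaled to total reads the split of members changed from 3 positive and 2 negative to 2 and 4, that of the 51 other genes from 20 and 8 to 13 and 13, and that of all genes to 14.8% positive and 30.0% negative. PMVK (1.16), NSDHL (1.06), SCAP (0.999), NPC2 (0.84), FADS2 (0.72) and NR1H2 (1.09) had positive interactions that also passed after correction. APOE (0.52), DHDDS (0.54), STARD4 (-0.84), ELOVL6 (-0.84), MBTPS2 (-0.70) and GGPS1 (-0.78) passed only as deposited, as did SREBF1 (0.60). Of these, APOE was at 0.402 to 1.28 FPKM over the 8 libraries, as low as MBTPS2 and GGPS1. INSIG2 had -0.16, which did not pass, and was called at 0.45 after correction.

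The 8 genes did not follow a single pattern over the libraries. Over the 6 libraries other than unstimulated KD, HMGCS1, SQLE, DHCR7 and SREBF2 rose and fell together, with Pearson's r of 0.54 to 0.97 in their 6 pairs, and so did FDFT1, SC5D, IDI1 and INSIG1, with 0.38 to 0.89. All 16 pairs between these groups had a negative r, from -0.92 to -0.54. The groups are the members higher and lower with TNF-α in control cells, and the libraries of that comparison are among the 6. The signs of r thus partly repeat that comparison, and the values are a description of 6 libraries. Over all 8 libraries 3 of the 16 pairs between the groups had a positive r and 4 of the 12 pairs within them a negative one.

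As a consequence, no gene resembled the whole set closely. The mean r with the 8 members was highest for NECAP1 over the 8 libraries, at 0.119, and for UBE2D1 over the 6, at 0.133. The next over 8 libraries were AC012645.1, NOS1, RALB, ACVR1B, TMEM63A, C6orf89, KLHL29 and PITPNM2. Over 6 libraries they were NDFIP2, WSB1, TTLL5, RAB21, YWHAZ, AP000526.1, MAPK1IP1L, ZNF792 and ERLIN1. Each of these genes had an r below 0 with at least 1 member, and for NECAP1 the values ran from -0.593 to 0.682.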

How the data were processed

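RNA from U2OS cells was sequenced in 8 libraries, 2 in each of 4 groups (control or KD, without or with TNF-α for 5 h). The authors deposited FPKM per gene. Per the labels, CASAVA 1.8, fastp, HISAT2 2.0.5, featureCounts 1.5.0-p3 and DESeq2 1.20.0 were used, on GRCh38. The steps between low values gave whole reads for 100% of values (tolerance 0.05), 15601098 to 18677023 per library. The scaling behind the deposited FPKM is a median-of-ratios factor in place of the read total, and the size it gives a library was 1.21 times the read total in unstimulated KD cells and 0.925 to 1.03 times in the other groups. No column of the tables was left unused.

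Log2(FPKM + 1) was fitted with limma 3.58.1 (R 4.3.3) as 4 group means with 4 residual degrees of freedom and a mean-variance trend. The fit used 16528 genes with the equivalent of at least 10 reads in 2 libraries and 15 reads in all. Benjamini-Hochberg adjusted p under 0.05 over these genes, two-sided, was called. Fold changes on this scale understate the change of low genes, and ratios of means are of FPKM. The study's methods name edgeR, a count test, which was not run on FPKM, so limma was used, with voom on the recovered reads as an alternative. The correction for GC content and length was a smooth trend removed from each library over 16520 genes with a GC content, taken from the longest transcript in GENCODE 29. The other alternatives were another pseudocount, other filters and scalings, a replicate block, fits of the 4 libraries compared and fits without each library. The procedure was tested on simulated data, with 2-fold changes in 193 tested genes of the stimulated KD group. Of these, 72.5% were recovered for KD with TNF-α, 74.1% for TNF-α in KD cells and 46.6% for the interaction. Unchanged genes called were 6, 6 and 3. A difference in GC content between libraries was not simulated. Libraries were grouped by their labels.

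The 8 genes, the pathway lists and the tests were chosen with earlier results of these data known. Named beside the 8 genes were WSB2, INSIG2, SCAP and SREBF1, and in each comparison up to 2 genes of each list with the largest absolute log2 fold change among those called. Genes among the 10 with the highest mean correlation with the members were also named. Some genes of the pathway are not reported here.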

Additional observations from a re-analysis of the deposited data

Results flagged for a closer look

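For 5 of the 8 genes the response to TNF-α differed between KD and control cells by the interaction term (limma, adjusted p under 0.05). The log2 values were 0.73 for DHCR7, 0.61 for FDFT1, 0.57 for SREBF2, -0.68 for SC5D and -0.44 for HMGCS1. The same term was called for 46.1% of all genes tested. The interaction uses the unstimulated KD libraries, whose reads had a GC content of 49.4% and 49.9%. Across the 8 genes the rank correlation of the interaction with GC content was 0.95 as deposited. It was still 0.64 after the correction for GC content and length. With this correction the interactions were 0.24, 0.53, 0.28, -0.07 and 0.04, in the same order of genes. Of these, that of FDFT1 passed the test, as did 35.3% of all genes. Groups of 2 libraries allow no test for a library far from the others.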

How the results depend on the processing

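With 2 libraries a group, a member at the depth of IDI1 (1717 reads over the 8 libraries) or SC5D limits what can be called, and a library left alone in its group was assumed to vary like the others. For TNF-α in control cells the count of 1 member called became 0 with no filter, with either other scaling, with the 4 libraries alone, with the replicate block and without the unstimulated KD group (an alternative chosen after seeing the data), 2 with voom and with the correction for GC content, and 0 to 3 on leaving out 1 library. The 1 other pathway gene became 0 with no filter, with 4 libraries, with the block and without the unstimulated KD group, 2 with voom, and 0 to 10 on leaving out 1. Genes called in all became 368 with no filter, 238 with 4 libraries, 443 without that group and 229 to 2130 on leaving out 1. For KD with TNF-α the 19 genes became 7 with no filter, 39 with 4 libraries, 10 with the block, 52 with voom, 64 with the correction, 7 without that group and 0 to 98 on leaving out 1. The correction left 2 members for KD without TNF-α and 1 for the interaction, and 23 and 12 other pathway genes for TNF-α in KD cells and the interaction.

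Some values changed sign. With total reads, TNF-α in KD cells gave -0.29 for HMGCS1, -0.28 for SQLE and -0.25 for WSB2, and with the upper quartile -0.017 for HMGCS1 and -0.0071 for SQLE. SQLE for KD with TNF-α became -0.0034 and -0.0086. INSIG1 became 0.17 for KD without TNF-α and -0.14 for the interaction and WSB2 -0.031 for the interaction, with total reads. SCAP for TNF-α in control cells became -0.013 with total reads, -0.0053 with the upper quartile and -0.0076 with the correction. The correction gave 0.041 for HMGCS1, 0.14 for IDI1, 0.12 for MBTPS2 and -0.17 for APOE in the interaction, -0.10 for IDI1, -0.20 for MBTPS2 and -0.37 for INSIG2 in KD without TNF-α, and 0.062 for SOAT1 and 0.22 for MBTPS2 in TNF-α in KD cells. On leaving out 1 library INSIG1 ran from -0.064 to 0.17 for KD with TNF-α, -0.17 to 0.049 without, and -0.0057 to 0.23 for the interaction. SC5D ran from -0.12 to 0.042 for KD with TNF-α and SCAP from -0.018 to 0.14 for TNF-α in control cells. The cause was not tested. Of the values of single genes under an alternative, 1512 kept direction and side of the threshold, 66 lost the call, 13 gained one and 29 changed sign.

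Whether the replicate numbers pair the libraries is not stated. Deviations of same-numbered libraries correlated at 0.35 between unstimulated control and unstimulated KD. For the other pairs of groups the correlation was -0.191 to 0.017. With the replicate block the adjusted p became 0.056 for HMGCS1 and 0.0609 for MSMO1 in TNF-α in control cells, 0.0508 for IDI1 in KD without TNF-α and 0.0527 for HMGCS1 in the interaction. With the numbers of the stimulated control libraries exchanged, chosen after seeing the data, 8 genes were called for KD with TNF-α.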
